A study of Mus musculus with 72 samples.

Results

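The hippocampus of mice 12 h after contextual fear conditioning (FC12, 9 mice) was compared with that of handled, untrained mice dissected at the same hour (CC12, 9 mice). These 18 arrays, chosen by their sample titles, are part of 72 arrays from 8 groups. All mice were C57BL/6J males of 2 months, handled on 3 days before the experiment and kept under 12 h of light a day. FC12 mice spent 2.5 min in a new chamber at zeitgeber time 3, received 1 foot shock of 1.5 mA for 2 s and were dissected 12 h later, in the dark phase. CC12 mice saw neither the chamber nor the shock, so the comparison does not separate learning from exposure to either. RNA of the 2 hippocampi of each mouse went on 1 array, and the labels count each mouse as a separate sample. Values are log2 signals from which the first principal component over all 72 arrays (PC1) was subtracted, and a log2 fold change is the FC12 mean minus the CC12 mean. Markers of the dissected region were present in both groups: Prox1, a transcription factor of dentate granule cells, lay at 9.48 to 9.81 in FC12 mice and 9.49 to 9.73 in CC12 mice, and Fibcd1, a marker of CA1 pyramidal cells, at 8.04 to 8.29 in FC12 and 8.16 to 8.46 in CC12. In bulk tissue, fewer cells of a type and less RNA in each cell cannot be told apart.

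Contextual fear conditioning leaves a lasting memory of the place of a shock, and the hippocampus is needed to form it. Neuronal activity switches on immediate early genes such as Fos, Arc and Egr2 within minutes, and their transcripts decay within hours. A later phase of transcription, hours after training, has been linked to the persistence of the memory. The hippocampus also runs a daily clock, in which the activators Arntl and Clock or Npas2 drive the repressors Per and Cry through E-box sequences in their promoters, so that a control of the same hour is needed.

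No probe set differed between FC12 and CC12 at an adjusted p under 0.1 (limma, Benjamini-Hochberg over 35556 probe sets, 0% called). The lowest adjusted p was 0.99985. The number of probe sets with an unadjusted p under 0.05 was 1442, or 4.06% of those tested, of which 700 (1.97%) lay higher and 742 (2.09%) lower in FC12. An unadjusted p under 0.01 was reached by 238 probe sets, or 0.669%. In 0 probe sets, or 0%, were all FC12 mice above or all below all CC12 mice. A fit without moderated variances, adjusted in the same way, also called 0 and put 1417 at an unadjusted p under 0.05. Local false discovery rates, the kind of call the methods used, put 21 probe sets (0.0591%) under 0.1, 4 higher and 17 lower in FC12, of which 13 carry 1 gene symbol. As written here, that method also made calls on simulated data without differences. Beside this, the same limma test called 91 probe sets (0.256%) 30 min after training (FC30 against its own control CC30) and 1243 (3.5%) between the untrained groups CC12 and CC30, which were dissected at different hours. On the components of largest variation no difference passed the test: mean scores, FC12 minus CC12, differed by 0.32 on PC1, -2.17 on PC2 and 0.21 on PC3 (exact permutation test over 48620 splits, two-sided, p = 0.935, 0.553 and 0.881). On PC1, replicate 2 of FC12 (61.06) and replicate 2 of CC12 (48.77) stood far from the other mice of their groups.

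The intervals state how large a difference in array signal could have been present. Over all probe sets the standard error of the log2 fold change had a median of 0.05, and the 95% interval reached a median of 0.105, or 1.08-fold, to either side of the estimate. The whole 95% interval lay inside 1.2-fold in either direction for 30055 of 35556 probe sets (84.5%) and inside 1.5-fold for 35114 (98.8%). It reached beyond 2-fold in 24. Probe sets with 1 gene symbol were more precise: of 21218, 20608 (97.1%) lay inside 1.2-fold, 21187 inside 1.5-fold and all but 5 inside 2-fold. Among the 8889 probe sets with the highest mean level, 97.9% lay inside 1.2-fold, with 84% in the next class of this size, 73.6% in the one below it (means of 4.16 to 5.83) and 82.7% in the dimmest. When the intervals were widened by Bonferroni so that all hold together, 25.9% of the probe sets with 1 gene symbol stayed inside 1.2-fold, 94.9% inside 1.5-fold and 99.6% inside 2-fold. A change of 2-fold in the array signal of a named gene thus lay outside nearly every interval. The simultaneous intervals reached beyond 1.2-fold for 15715 of the 21218. These bounds hold for the signal of the whole hippocampus. The paper states that array fold changes are small and that homogenates dilute a change in few cells. How closely the signal follows the amount of transcript, also in the dimmest probe sets, was not tested.

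**Figure D1:**
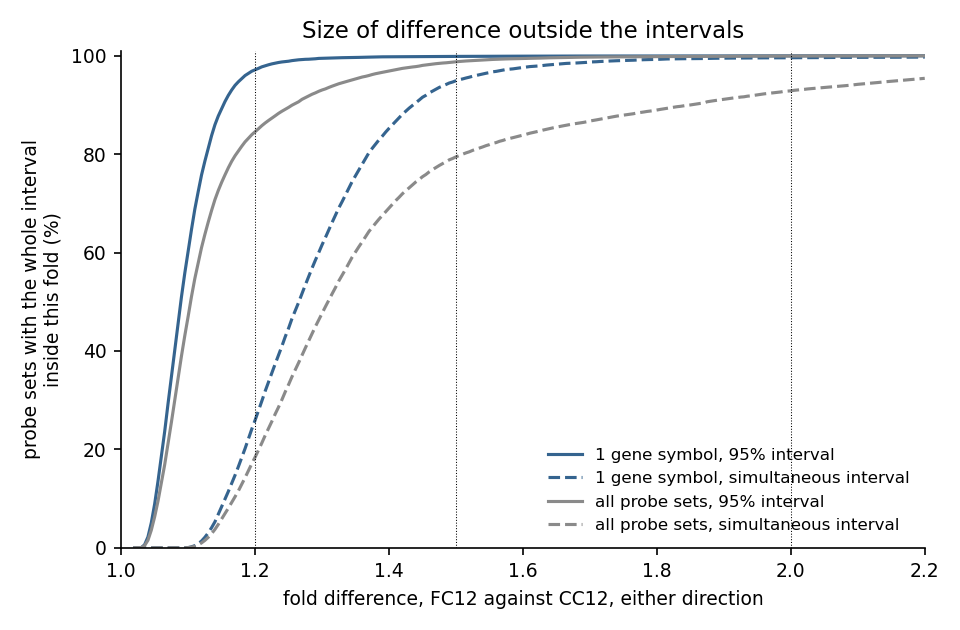
Percent of probe sets (y axis) whose whole interval for FC12 against CC12 lies inside the fold on the x axis, for probe sets with 1 gene symbol (blue) and all probe sets (grey), with solid lines for the 95% interval of each probe set and dashed lines for intervals that hold together over all. At 1.2-fold the curves stand at 97.1% and 84.5% for the single intervals and at 25.9% and 18.4% for the simultaneous ones.

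Of the genes that lay higher in FC12 mice with an unadjusted p under 0.01, Hapln2, a matrix protein of the nodes of myelinated axons, had the largest difference. Its log2 values were 6.51, 6.72 and 6.93 (lowest, median, highest) in FC12 and 6.01, 6.42 and 6.77 in CC12. The groups overlapped, with 3 FC12 mice above all CC12 mice. The log2 fold change was 0.27 (95% interval 0.10 to 0.44, limma, unadjusted p = 0.00389). Adgrf4, an adhesion G protein-coupled receptor, gave the lowest unadjusted p of this set, 0.000113. Its values were 4.29, 4.38 and 4.51 in FC12 and 4.04, 4.21 and 4.35 in CC12, with 7 FC12 mice above all CC12 mice and a log2 fold change of 0.19 (interval 0.11 to 0.27). The largest differences named here and below were chosen on these same mice. Their unadjusted p, intervals and counts of separated mice are therefore no independent result. Both genes had a limma adjusted p of 0.99985, the lowest over all probe sets.

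Arf6, a small GTPase of endosomal recycling and spine structure, has 2 probe sets, which did not give the same result. In the dimmer one (mean 5.27 over all arrays) the values were 5.28, 5.35 and 5.54 in FC12 and 5.05, 5.17 and 5.30 in CC12. Here too 7 FC12 mice lay above all CC12 mice, and the log2 fold change was 0.19 (interval 0.10 to 0.28, limma, unadjusted p = 0.000387). In the brighter one (mean 8.47), which the gene list uses, the log2 fold change of Arf6 was 0.001 (limma, unadjusted p = 0.969). Actr3, a core subunit of the Arp2/3 complex that branches actin filaments, had values of 9.55, 9.63 and 9.76 in FC12 and 9.47, 9.52 and 9.58 in CC12, with a log2 fold change of 0.12 (interval 0.06 to 0.19, limma, unadjusted p = 0.000777). Over the whole actin and Arp2/3 list, 7 of 18 measured genes lay above 0 and 11 below, with a median log2 fold change of -0.005 beside -0.002 over all 18820 genes. Of the 15 largest differences in this direction, the others were Prp2, Aldoart1, D730005E14Rik, Wnt3, Ccdc180, Olfr845, Mir219a-2, Cngb1, Map3k12, Ccdc3, Olfr394 and S100a4, with log2 fold changes between 0.16 and 0.25. Wnt3 is a secreted Wnt ligand, and Map3k12 a kinase of the axonal stress response. Of these, 4 also had other probe sets, with log2 fold changes of 0.03 for Map3k12, 0.02 for D730005E14Rik and -0.06 for Cngb1, and for Ccdc180 between -0.14 and 0.16.

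Of the genes that lay lower in FC12 mice with an unadjusted p under 0.01, Inmt, a methyltransferase of indolethylamines, had the largest difference. Its values were 4.71, 4.94 and 5.11 in FC12 and 4.98, 5.14 and 5.69 in CC12, and 7 FC12 mice lay below all CC12 mice. The log2 fold change was -0.33 (interval -0.51 to -0.16, limma, unadjusted p = 0.000760). Inmt also depended on the hour, being higher in CC12 than in CC30 by 0.52 (limma, adjusted p = 0.0047), a comparison that shares the CC12 mice.

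Klf4, a zinc finger transcription factor of pluripotent cells that also restrains axon growth, gave the lowest unadjusted p among the 15 largest differences in this direction, 0.000256 (limma). Its values were 5.10, 5.21 and 5.38 in FC12 and 5.18, 5.47 and 5.73 in CC12. A single CC12 mouse lay within the FC12 range and the other 8 lay above it. The log2 fold change was -0.26 (interval -0.38 to -0.14), with a limma adjusted p of 0.99985. The local false discovery rate of Klf4 was 0.0342, beside 0.0195 for Adgrf4, and this method also made calls on simulated data without differences. At 30 min the FC30 mean was 5.48 ± 0.20 and the CC30 mean 5.38 ± 0.13, and at 4 h the FC4 mean was 5.38 ± 0.17 and the CC4 mean 5.44 ± 0.11 (SD, n = 9 each). The effect at 12 h minus that at 30 min was -0.36, which did not pass the test over all probe sets (limma, adjusted p = 0.372). The promoter of Klf4 is shown because it holds an E-box, CACGTG (in capitals, the same on both strands), the sequence the clock activators bind. It lies 182 bases before the start of the transcript, in the window chr4:55532426-55532725 on the minus strand (RefSeq, GRCm38.p6). Of all 32851 promoter windows of this length, 7.15% hold CACGTG. Between the untrained groups Klf4 was not called by the hour, with CC12 minus CC30 at 0.10 (limma, adjusted p = 0.549). Whether the clock acts on Klf4 was not tested.
Klf4 promoter: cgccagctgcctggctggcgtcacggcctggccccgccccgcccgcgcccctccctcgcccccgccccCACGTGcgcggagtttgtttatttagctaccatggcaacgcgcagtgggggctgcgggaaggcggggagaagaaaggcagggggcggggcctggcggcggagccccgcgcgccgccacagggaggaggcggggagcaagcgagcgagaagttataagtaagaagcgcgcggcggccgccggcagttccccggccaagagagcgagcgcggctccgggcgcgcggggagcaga

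Mir376a, a microRNA of the imprinted cluster on chromosome 12, and Niban2, a cytoplasmic protein of cell survival, also lay lower in FC12. For Mir376a the values were 5.05, 5.35 and 5.50 in FC12 and 5.16, 5.67 and 5.81 in CC12, with 7 CC12 mice above all FC12 mice and a log2 fold change of -0.26 (interval -0.44 to -0.08, limma, unadjusted p = 0.0062). The array reports the transcript of the locus and does not separate the mature microRNA from its precursor. For Niban2 the values were 6.26, 6.47 and 6.58 in FC12 and 6.57, 6.61 and 6.78 in CC12, with a log2 fold change of -0.17 (interval -0.25 to -0.08, limma, unadjusted p = 0.000687). Only a narrow overlap remained for Niban2, since 7 FC12 mice lay below all CC12 mice. The other genes of this set were Vat1l, Prss8, Alas2, Ccdc12, Uaca, Aire, Flvcr2, Abi3bp, Rhov, Chrm4 and Trav14-1, with log2 fold changes between -0.27 and -0.17. Other probe sets stood at 0.004 for Ccdc12 and between -0.02 and 0.02 for Trav14-1. Chrm4 is the muscarinic receptor that inhibits adenylyl cyclase, Alas2 makes heme in erythroid cells, and Flvcr2 is a transporter of the blood vessels of the brain. Without a gene symbol, probe sets 10344007 (0.58) and 10343074 (0.49) had the largest positive and 10339856 (-0.74) and 10338734 (-0.57) the largest negative log2 fold changes.

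**Figure D2:**
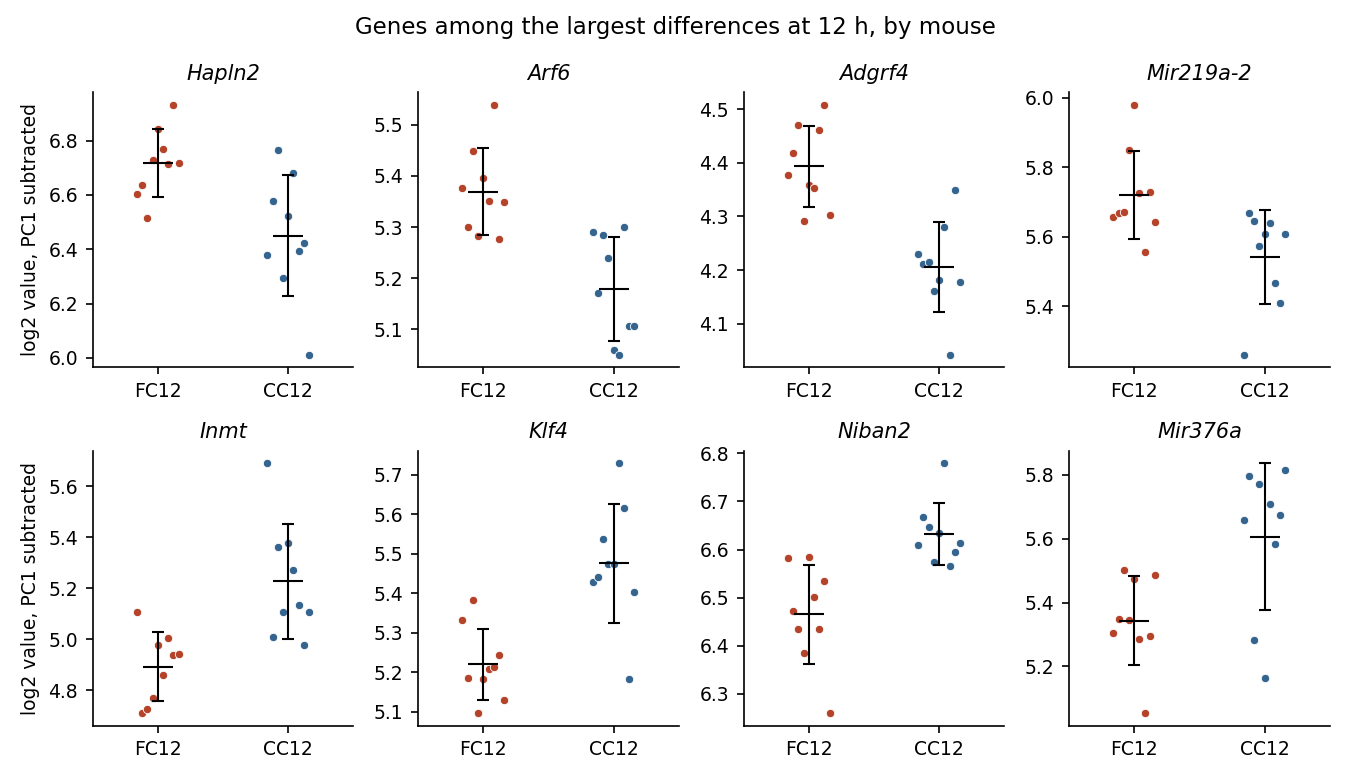
Log2 values after subtraction of PC1 (y axis) of 8 genes for each FC12 mouse (left, red) and CC12 mouse (right, blue), with the mean and SD in black. In every panel the groups overlap, for instance by 1 CC12 mouse in Klf4, Arf6 is shown by its dimmer probe set, and the y axes do not start at 0.

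Over all 18820 genes, 8987 had a log2 fold change above 0 and 9833 below. The core clock list was lower in FC12 by a small amount. Of 20 genes measured, 17 lay below 0 and 3 above, with a median log2 fold change of -0.027, and 3 had an unadjusted p under 0.05, all lower in FC12 (15%, beside 4.06% of all probe sets). These were Npas2, an activator that pairs with Arntl, at -0.12 (interval -0.22 to -0.02), Per2, a repressor, at -0.08 (interval -0.17 to -0.0004), and Rorb, a nuclear receptor that drives Arntl, at -0.07 (interval -0.14 to -0.002). Rorb is also on the list of thalamus and cortex markers, as its only gene with an unadjusted p under 0.05. Npas2 had values of 9.01, 9.22 and 9.31 in FC12 and 9.15, 9.33 and 9.42 in CC12. The groups overlapped, with 4 FC12 mice lay below all CC12 mice and 5 CC12 mice above all FC12 mice. Per2 had values of 7.48, 7.72 and 7.78 in FC12 and 7.69, 7.77 and 7.89 in CC12, the lowest FC12 value being that of replicate 2.

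Averaged over the 20 clock genes, the 9 FC12 mice lay between 8.28 and 8.32 with a median of 8.30, and the 9 CC12 mice between 8.28 and 8.36 with a median of 8.34. All 9 FC12 mice were below the CC12 median, and 8 of the 9 CC12 mice were above every FC12 mouse, the exception being replicate 9. The group means differed by -0.038. Of the other 23 lists, 1 also had all 9 FC12 mice on one side of the CC12 median, that of chromatin modifiers, with a difference in means of -0.008. With each mouse left out in turn, 16 to 18 of the clock genes stayed below 0 and the median ranged from -0.039 to -0.022. The count with an unadjusted p under 0.05 ranged from 1 to 4, and was 1 without replicate 3, 4 or 6 of CC12 or replicate 1, 5 or 8 of FC12.

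The intervals of the clock genes were narrow. The 95% interval lay inside 1.2-fold for 20 of 20 clock genes (97.3% of all genes), and the interval that reached farthest, that of the repressor Ciart, ended at -0.22. Arntl, with values of 7.20, 7.30 and 7.42 in FC12 and 7.14, 7.27 and 7.43 in CC12, had a log2 fold change of 0.01 (interval -0.07 to 0.09). The hour of dissection gave larger values in the untrained mice, a comparison that shares the CC12 mice with FC12 against CC12. From CC12 minus CC30, 8 clock genes were called higher and 1 lower (limma, adjusted p under 0.1, 3.5% of all probe sets called), with Ciart at 0.39, Per2 at 0.38, Per3 at 0.29 and Arntl at -0.29. The values of the same genes for FC12 minus CC12 were -0.09 for Ciart, -0.08 for Per2, -0.02 for Per3 and 0.01 for Arntl. Ciart and Nr1d2 each have another, dimmer probe set, which lay above 0, at 0.04 for Ciart and 0.01 for Nr1d2.

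Per1, a repressor of the clock and also an immediate early gene, had values of 8.42, 8.56 and 8.73 in FC12 and 8.44, 8.67 and 8.72 in CC12. Its log2 fold change was -0.08 (interval -0.17 to 0.01, limma, unadjusted p = 0.0950), and replicate 9 of CC12 (8.44) lay apart from the other CC12 mice (8.61 to 8.72). At 30 min the log2 fold change was 0.26, and the effect at 12 h minus that at 30 min was -0.34 (SE 0.064, limma, adjusted p = 0.0137). The promoters of Per1 are shown because this gene carries both kinds of input. Its first start has an E-box, CACGTG, 166 bases upstream (chr11:69098699-69098998, plus strand), and its other start the motif TGACGT, or ACGTCA on the other strand, which is also part of the full cAMP response element TGACGTCA, 132 bases upstream (chr11:69099902-69100201, plus strand, both GRCm38.p6, RefSeq, motif in capitals). Of all promoter windows 7.15% hold the E-box, 7.51% TGACGT and 1.79% TGACGTCA, both strands searched. Per gene, 5 of 19 clock genes with a promoter window hold the E-box (26.3%), beside 8.09% of all 27025 genes. Of 31 immediate early genes with a window, 11 hold it (35.5%), so the E-box is not particular to the clock list. TGACGT is held by 45.2% of these 31, 10.5% of the clock genes and 8.37% of all genes. The probe set of Per1 does not separate transcripts from the 2 starts.
Per1 promoter, first start: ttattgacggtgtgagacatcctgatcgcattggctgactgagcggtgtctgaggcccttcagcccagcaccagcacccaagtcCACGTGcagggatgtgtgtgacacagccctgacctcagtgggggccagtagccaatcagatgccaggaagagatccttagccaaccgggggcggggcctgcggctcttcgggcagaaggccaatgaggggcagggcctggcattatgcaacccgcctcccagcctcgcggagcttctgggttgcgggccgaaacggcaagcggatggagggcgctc
Per1 promoter, other start: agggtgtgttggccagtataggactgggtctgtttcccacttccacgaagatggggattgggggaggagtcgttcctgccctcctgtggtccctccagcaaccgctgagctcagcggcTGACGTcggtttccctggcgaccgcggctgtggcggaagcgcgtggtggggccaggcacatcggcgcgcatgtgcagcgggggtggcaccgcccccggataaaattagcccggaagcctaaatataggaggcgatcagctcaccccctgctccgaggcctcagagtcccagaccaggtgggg

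Genes of myelin and the oligodendrocyte, the glial cell that wraps axons, lay higher in FC12. All 24 measured genes had a log2 fold change above 0, with a median of 0.095 beside -0.002 over all genes, and 5 had an unadjusted p under 0.05, all higher in FC12 (20.8%, beside 4.06% of all probe sets). These were Aspa, which makes acetate for myelin lipids, at 0.16 (interval 0.0004 to 0.31), Mag, an adhesion protein of the inner myelin layer, at 0.14 (interval 0.02 to 0.26), the iron carrier Trf at 0.11, the lineage transcription factor Olig2 at 0.10 and the receptor Gpr37 at 0.10. Mag had values of 9.51, 9.65 and 9.78 in FC12 and 9.18, 9.53 and 9.68 in CC12, with 3 FC12 mice above all CC12 mice. Mog, at the outer surface of myelin, had values of 9.42, 9.55 and 9.75 in FC12 and 9.03, 9.52 and 9.69 in CC12, and a log2 fold change of 0.11 (interval -0.05 to 0.26). Its medians were close, and replicate 9 of CC12 (9.03) lay apart from the other CC12 mice (9.42 to 9.69). Opalin, a membrane protein of oligodendrocytes, stood at 0.08 (interval -0.08 to 0.25). In untrained mice the list was lower in CC12 than in CC30, with a median of -0.11. By the hour 3 genes were called lower, among them Opalin at -0.62, and 0 higher (limma, adjusted p under 0.1). Of all 18820 genes, 350 were called lower and 504 higher by the hour. That comparison shares the CC12 mice. The means of Mag were 9.65 in FC12, 9.51 in CC12 and 9.63 in CC30, and those of Gpr37 9.03, 8.93 and 9.13.

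Averaged over the 24 genes, FC12 mice lay at 8.29, 8.37 and 8.46 and CC12 mice at 8.08, 8.30 and 8.44 (lowest, median, highest). The group means differed by 0.085 beside SDs of 0.067 in FC12 and 0.116 in CC12, and replicates 9 (8.08) and 7 (8.14) of CC12 were the lowest mice. Without replicate 9 of CC12 the median log2 fold change of the list was 0.06 and 2 genes had an unadjusted p under 0.05, and without replicate 5 of CC12, the highest control, these values were 0.11 and 10. The count was 1 without replicate 7 of CC12 or replicate 5 of FC12, 2 without replicate 8 of CC12 or replicate 8 or 9 of FC12, 3 without replicate 4 of CC12 and 8 without replicate 1 of FC12. The 95% interval lay inside 1.2-fold for 20 of 24 genes and reached farthest for Fa2h, a hydroxylase of myelin lipids, to 0.32. Mir219a-2, whose microRNA promotes the maturation of oligodendrocytes, lay in the same direction and is described below with the genes of the early response.

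Genes of the dentate granule cell, the first relay of the hippocampal circuit, also lay higher in FC12, by less. Of 19 measured, 18 lay above 0 and 1, Marcks, below, with a median of 0.052, and 3 had an unadjusted p under 0.05, all higher in FC12 (15.8%). Glis3, a zinc finger transcription factor, had values of 8.48, 8.60 and 8.72 in FC12 and 8.36, 8.44 and 8.57 in CC12, with 6 FC12 mice above all CC12 mice. Its log2 fold change was 0.14 (interval 0.06 to 0.21, limma, unadjusted p = 0.00122). The others were Npnt, a ligand of integrins, at 0.11 (interval 0.02 to 0.20), and Prox1 at 0.09 (interval 0.003 to 0.18). The best known markers Dsp, a desmosome protein, and C1ql2, a synaptic organizer of mossy fibres, stood at 0.07 and 0.03, with another probe set of Dsp at -0.01. All 19 intervals lay inside 1.2-fold. Averaged over the list, FC12 mice lay at 8.47, 8.56 and 8.71 and CC12 mice at 8.48, 8.55 and 8.65, so that the medians were nearly equal, and replicates 3, 6 and 4 of FC12 (8.71, 8.70 and 8.68) lay above all CC12 mice. With each mouse left out in turn the median ranged from 0.038 to 0.065 and the count with an unadjusted p under 0.05 from 1 to 4, and this was 1 without replicate 3 or 6 of FC12.

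Genes of tissues that border the hippocampus lay in the opposite direction, without passing a test. Of 12 measured genes of the choroid plexus, the secretory tissue of the ventricles, 12 lay below 0, with a median of -0.34, and 0 reached an unadjusted p under 0.05. Ttr, the transthyretin that this tissue secretes, had values of 6.75, 8.67 and 11.6 in FC12 and 7.61, 8.83 and 12.2 in CC12, and a log2 fold change of -0.96 (interval -2.56 to 0.64). The list mean was 4.72, 5.35 and 6.46 in FC12 and 5.10, 5.29 and 7.27 in CC12, with replicates 1 (7.27) and 3 (7.02) of CC12 at the top and 7 FC12 mice above the CC12 median, and the median was -0.17 without replicate 1 of CC12 and -0.20 without replicate 3. Of 14 genes of meningeal fibroblasts, 12 lay below 0, with a median of -0.08, among them Dcn at -0.19 and Col6a1 at -0.09, both with an unadjusted p under 0.05. That median was -0.04, -0.05 and -0.13 without replicate 2, 3 and 6 of CC12, and -0.16 and -0.05 without replicate 1 and 9 of FC12. The part of these tissues in the values of the myelin, granule cell and clock lists was not tested.

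**Figure D3:**
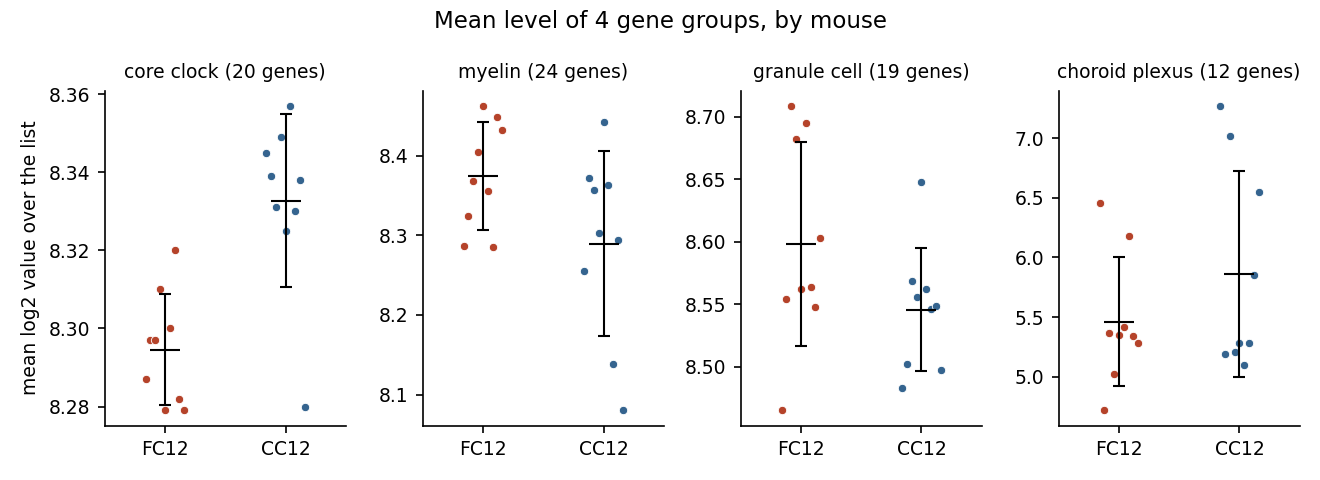
Mean log2 value over the genes of 4 lists (y axis, a different range in each panel, not starting at 0) for each FC12 mouse (left, red) and CC12 mouse (right, blue), with the group mean and SD in black. The clock list shows 8 CC12 mice above all FC12 mice, while the choroid plexus list spans 4.72 to 7.27.

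Other cell types of the hippocampus gave counts on both sides of 0. Of 17 genes of CA1 and CA3 pyramidal cells 7 lay above and 10 below, with Fibcd1 at -0.12 (interval -0.21 to -0.03) and Lefty1, a TGF-beta family antagonist, at -0.09, while Grik4, a kainate receptor subunit of CA3, stood at 0.07 (interval 0.003 to 0.14). Of 14 genes of microglia, the immune cells of the brain, 8 lay above and 6 below, with the fractalkine receptor Cx3cr1 and the protease Ctss both at 0.09 and an unadjusted p under 0.05. Of 15 astrocyte genes 5 lay above and 10 below, and the thyroid hormone transporter Slco1c1 stood at -0.10 (interval -0.18 to -0.03). All intervals of these 3 lists lay inside 1.2-fold.

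In the lists of cholesterol synthesis and of the mitochondrial complexes, small values below 0 prevailed. Of 19 genes of cholesterol synthesis and turnover 17 lay below 0, with a median of -0.038, and 1 had an unadjusted p under 0.05, Cyp46a1, the enzyme that clears cholesterol from neurons. It had values of 9.86, 9.93 and 10.1 in FC12 and 9.99, 10.0 and 10.1 in CC12, with 7 FC12 mice below all CC12 mice and a log2 fold change of -0.09 (interval -0.15 to -0.04). Of 19 genes of the mitochondrial complexes 17 also lay below 0, with a median of -0.022, and Ndufb5 of complex I stood at -0.06 (interval -0.11 to -0.01). All 19 intervals of each list lay inside 1.2-fold. Of 32 chromatin modifiers 11 lay above and 21 below, 0 with an unadjusted p under 0.05, and the farthest bound was 0.13. Of 24 genes that respond to glucocorticoid, the stress hormone, 13 lay above 0 and 11 below. Within it Fmo2, a monooxygenase, was lower at -0.34 (interval -0.65 to -0.03), Sult1a1, a sulfotransferase, higher at 0.13 (interval 0.005 to 0.25), and Fkbp5, a chaperone of the receptor, stood at 0.05 (interval -0.04 to 0.13).

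The remaining lists gave medians within 0.04 of 0 and few genes with an unadjusted p under 0.05. Of 12 heat shock and cold-inducible genes 10 lay below 0, with a median of -0.031 and the mitochondrial chaperonin Hspe1 at -0.07 (interval -0.14 to -0.003). Of 15 interneuron genes 8 lay below 0, with Reln, a secreted matrix protein, at -0.09 (interval -0.17 to -0.01). Counts above and below 0 were 9 and 5 for neurogenesis, 8 and 3 for neurotrophin signalling, 12 and 13 for glutamate receptors and CaMKII, 6 and 12 for ER chaperones, 6 and 6 for markers of thalamus and cortex and 6 and 5 for housekeeping genes. Of 15 endothelial genes 12 lay below 0, with a median of -0.012. Of 26 learning genes that the study names 13 lay above and 13 below, with a median of -0.010. Without replicate 2 of both groups, the mice apart on PC1, the median was 0.004 for endothelium, 0.025 for the learning genes, 0.004 for glutamate receptors (-0.001 with all mice), -0.010 for heat shock genes, -0.009 for ER chaperones (-0.018 with all mice), 0.033 for microglia (0.022 with all mice) and -0.005 for immediate early genes (-0.025 with all mice).

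**Figure D4:**
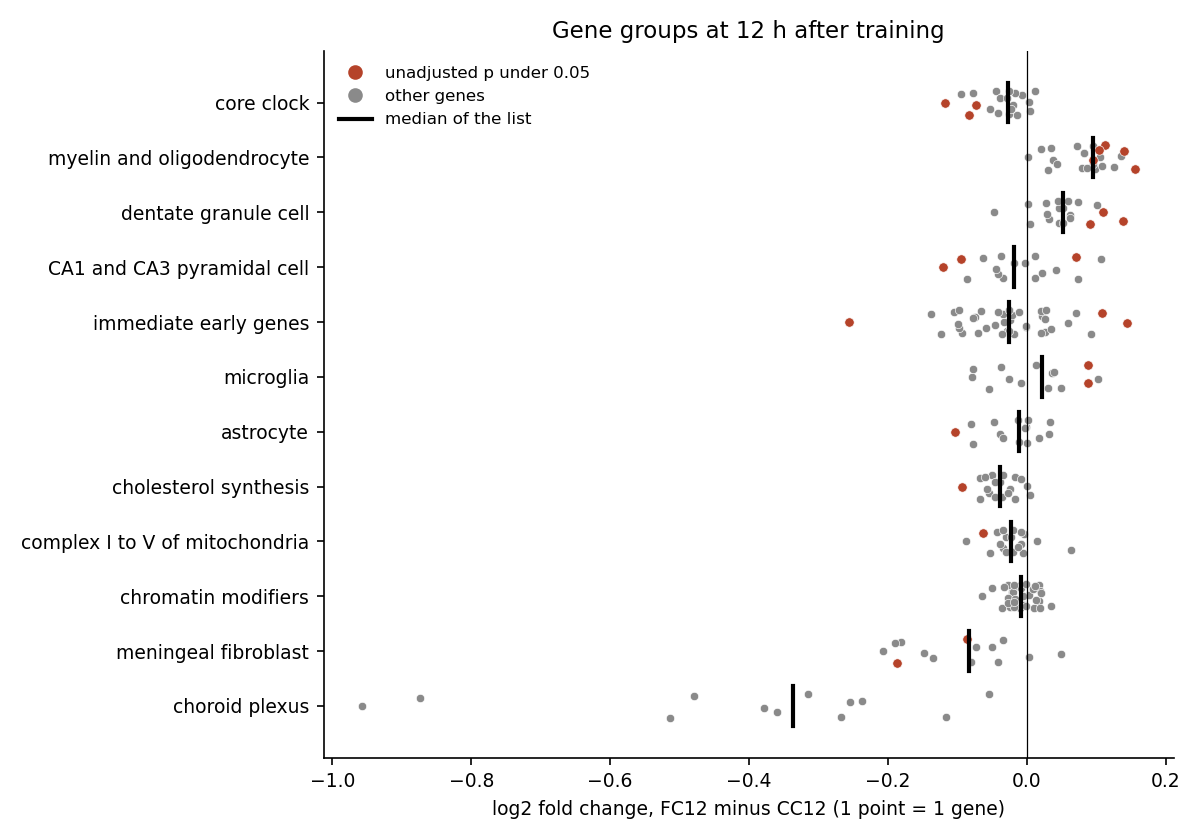
Log2 fold change, FC12 minus CC12 (x axis), of each gene (1 point) of 12 lists (y axis), in red where the unadjusted p is under 0.05, with the median of the list as a black bar. The myelin list lies wholly above 0 (median 0.095) and the choroid plexus list wholly below (median -0.34), and the core clock list centres at -0.027.

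The genes of the early response were followed to 12 h. At 30 min, 91 probe sets were called (0.256%), 66 higher and 25 lower in FC30 than in CC30, a choice that uses no FC12 or CC12 mouse. The 66 had a median log2 fold change of 0.33 at 30 min and of -0.03 at 12 h, with 24 above 0 and 42 below, and for 63 of them the 95% interval at 12 h left out the value at 30 min. The 25 had a median of -0.39 at 30 min and 0.07 at 12 h, and for 24 the interval left out the value at 30 min. At 12 h 3 of the 91 had an unadjusted p under 0.05, all higher in FC12, and 0 were called. The values at 30 min were chosen for their size, and their own error is not part of the intervals at 12 h. The difference of the effects, (FC12 minus CC12) minus (FC30 minus CC30), was called for 31 probe sets (0.0872%, limma, adjusted p under 0.1), 7 above 0 and 24 below. Of these 31, 28 were among the 91. This contrast shares the FC30 and CC30 mice with the choice of the 91, so the overlap and its signs are no independent result.

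Egr2, a zinc finger transcription factor, had the largest such difference among named genes, -1.30 (SE 0.17, limma, adjusted p = 7.47e-05). Its values at 12 h were 4.93, 5.40 and 5.66 in FC12 and 5.04, 5.39 and 5.72 in CC12, so that the groups overlapped almost fully, with a log2 fold change of -0.03 (interval -0.23 to 0.17) beside 1.27 at 30 min. Arc, the synaptic protein that is made at active dendrites, had values of 7.45, 8.22 and 8.57 in FC12 and 7.74, 8.24 and 8.38 in CC12. Its log2 fold change was -0.08 (interval -0.34 to 0.19) beside 0.85 at 30 min, and the difference of the effects was -0.93 (SE 0.16, limma, adjusted p = 0.00508). Fos stood at 0.06 (interval -0.19 to 0.31) beside 0.82, and Nr4a1, a nuclear receptor, at -0.14 (interval -0.37 to 0.10) beside 0.76, and the effects of both genes differed between the times (limma, adjusted p = 0.0319 for Fos and 0.00108 for Nr4a1). Npas4, a factor of inhibitory synapse formation, stood at -0.02 (interval -0.27 to 0.23) beside 0.64, and that difference did not pass (limma, adjusted p = 0.362). Without replicate 2 of both groups, the mice that stood apart on PC1, the values of Egr2, Arc and Npas4 were 0.04, 0.01 and 0.07.

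Of 39 immediate early genes 18 were called higher at 30 min, beside 40 of all 18820 genes (limma, adjusted p under 0.1). At 12 h, 12 of the 39 lay above 0 and 27 below. The median at 12 h was -0.025, and it was -0.007 without replicate 2 of FC12 and -0.049 without replicate 8 of CC12. An unadjusted p under 0.05 was found for 3 (7.69%): Klf4, lower, and Nptx2, a pentraxin that gathers glutamate receptors, at 0.15 (interval 0.03 to 0.26), and Ptgs2, the inducible cyclooxygenase, at 0.11 (interval 0.01 to 0.21). Bdnf, a neurotrophin needed for lasting memory, had values of 5.87, 5.96 and 6.08 in FC12 and 5.77, 5.88 and 5.98 in CC12, a log2 fold change of 0.09 (interval 0.01 to 0.17, limma, unadjusted p = 0.0217). By the hour, CC12 minus CC30 was -0.20 for Bdnf, -0.35 for Ptgs2 and -0.23 for Nptx2 (limma, adjusted p = 0.0020, 0.0011 and 0.033). That comparison shares the CC12 mice. The FC12 mean of Bdnf was 5.98, below the CC30 mean of 6.09. Among the early genes 31 of 39 intervals lay inside 1.2-fold at 12 h.

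**Figure D5:**
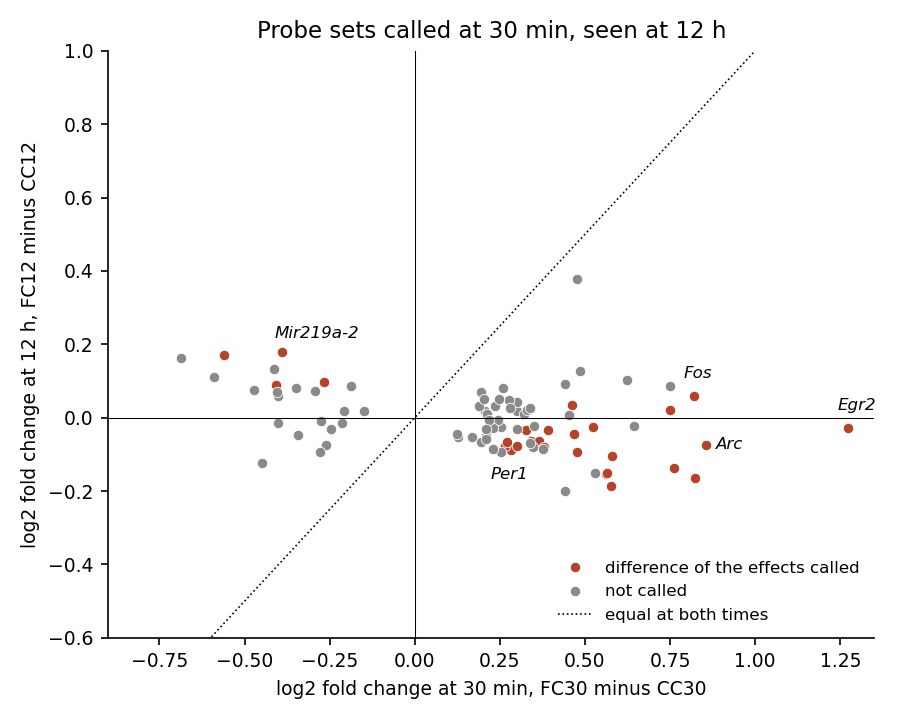
Log2 fold change at 12 h (FC12 minus CC12, y axis) against that at 30 min (FC30 minus CC30, x axis) for the 91 probe sets called at 30 min, in red where the difference of the effects was called, with a dotted line where both would be equal. The points lie near 0 on the y axis, between -0.20 and 0.38, whereas Egr2 reaches 1.27 on the x axis.

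MicroRNA loci were also among the transcripts whose effect differed between the times. Their mature sequences are shown with the seed, bases 2 to 8, in capitals, because the seed sets the targets of a microRNA, and they come from RefSeq (GRCm38.p6). Mir212 and Mir132 lie next to each other on chromosome 11 and share 1 seed, while Mir219a-2 (chr2:29845689-29845709, minus strand), Mir505 (chromosome X) and Mir376a (chr12:109723824-109723844, plus strand) each have another.
mmu-miR-219a-5p: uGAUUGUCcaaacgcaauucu
mmu-miR-212-3p: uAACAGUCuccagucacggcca
mmu-miR-132-3p: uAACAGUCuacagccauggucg
mmu-miR-505-3p: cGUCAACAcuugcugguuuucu
mmu-miR-376a-3p: aUCGUAGAggaaaauccacgu

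Mir219a-2 was the one named gene of both sets, the 15 largest positive differences at 12 h and the called differences between the times. Its values were 5.56, 5.67 and 5.98 in FC12 and 5.26, 5.61 and 5.67 in CC12, with 5 FC12 mice above all CC12 mice and a log2 fold change of 0.18 (interval 0.05 to 0.30, limma, unadjusted p = 0.0076). At 30 min it was called lower after training (limma, adjusted p = 0.0773), with a mean of 5.63 ± 0.20 in FC30 and 6.02 ± 0.18 in CC30 (SD, n = 9 each), and the difference of the effects was 0.57 (SE 0.11, limma, adjusted p = 0.0120). The paper, with local false discovery rates, lists the miR-219 precursor as not significant at 30 min after training. Its qPCR of the mature form in other mice was significantly lower only after retrieval. The untrained groups differed by hour too: the CC12 mean was 5.54 ± 0.14, which is 0.48 below CC30 (limma, adjusted p = 0.0012). Mir212, which is induced by CREB, stood at -0.04 at 12 h (interval -0.20 to 0.11) beside 0.47 at 30 min, a difference of -0.51 (limma, adjusted p = 0.0152). Mir132, its neighbour, stood at 0.02 (interval -0.11 to 0.14) beside 0.14, a difference of -0.13 that did not pass (limma, adjusted p = 0.976). Mir505 stood at -0.07 (interval -0.19 to 0.06) beside 0.27 at 30 min.

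Against the effect 4 h after training (FC4 minus CC4), that at 12 h was called different for 0 probe sets (limma, adjusted p under 0.1, 0%), with 1577 at an unadjusted p under 0.05. These counts do not show that the effects at 4 h and 12 h were equal.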

How the data were processed

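Hippocampal RNA of 72 mice was hybridised together on whole-transcript arrays, 1 a mouse. The deposited values are log2 signals, which the authors background corrected, quantile normalised and summarised with RMA for 35556 probe sets. Of these 21218 carry 1 gene symbol, 1881 several and 12457 none; gene lists and named genes use the first kind, so that 45 of 490 list entries, Nr1d1, Dbp and Mbp among them, were not analysed here. Of all probe sets 827 hold the same values as another. Array medians lay between 5.82 and 5.88. Precision is set by how many arrays there are.

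The methods subtract the first principal component. Here PC1 of the values, centred per probe set over all arrays, was subtracted. It held 17.4% of the variance (10.8% at unit variance). The scaling used in the methods could not be matched, so it may not be the component removed there. As in the methods, FC12 was compared with its control of the same hour. The 18 arrays were fitted with limma 3.58.1 (R 4.3.3), two-sided, with a threshold of 0.1 on Benjamini-Hochberg adjusted p. Intervals are at 95%, and simultaneous by Bonferroni. Differences between times were interaction terms. Local false discovery rates follow Efron's method, were written here, and also made calls on simulated data without differences. Each list gene is represented by its brightest probe set. Named were the 15 largest differences in each direction with an unadjusted p under 0.01, list members with one under 0.05, selected known members, and genes of the called differences between times. The members and lists were chosen with earlier results of these data known. Alternatives were other components, tests, filters, a fit of all groups, the replicate number as a block and leaving out mice, the last of these in part chosen after seeing the data. Python 3.11.15 was used for sequences and figures.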

Additional observations from a re-analysis of the deposited data

Results flagged for a closer look

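Of 158 sets of 9 values looked at, 15 held a mouse that stood apart by Dixon's test at 95%. The sets share the same mice and most of their genes were chosen on these values. The share can therefore not be set against the 1 in 20 that chance gives for independent sets. On PC1 the mice that stood apart were replicate 2 of FC12 (61.06) and replicate 2 of CC12 (48.77). Among log2 values in FC12 they were replicate 4 for Cngb1 (5.458), Flvcr2 (5.425) and Hspe1 (9.102), replicate 7 for Mir376a (5.053), replicate 1 for Uaca (5.686) and replicate 2 for Per2 (7.477). In CC12 they were replicate 6 for Cngb1 (5.08) and Niban2 (6.78), replicate 9 for Per1 (8.442) and Mog (9.025), replicate 8 for Arc (7.741), replicate 5 for Lefty1 (6.286) and replicate 3 for probe set 10344007 (3.231).

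For 21 named genes the effect at 12 h differed from that at 30 min (limma, interaction, adjusted p under 0.1). Above 0, with a higher effect at 12 h, were Mir219a-2 (0.5692) and 2900052L18Rik (0.3654). Below 0 were the transcription factors and signalling genes Egr2 (-1.301), Arc (-0.9301), Nr4a1 (-0.9006), Fos (-0.7603), Dusp1 (-0.7305), Ccn1 (-0.6854), Junb (-0.5707), Sik1 (-0.5493), Btg2 (-0.4279), Egr1 (-0.4255) and Per1 (-0.3418). Also below 0 were the small RNA genes Snord14e (-0.9854), Mir212 (-0.5134), Mir505 (-0.3375) and AF357355 (-0.3042), and Apold1 (-0.4603), Ctsk (-0.4307), Pvr (-0.3782) and Stac3 (-0.3718).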

How the results depend on the processing

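The count of 0 called probe sets held with no component, 2 components or a component of the 18 arrays alone removed, with all groups in one fit, with the equal variance test, an intensity trend, array weights, without the dimmest 25%, with 1 gene symbol only, and without any single mouse (0 to 0). Local false discovery rates gave 21, and the cause was not tested. Unadjusted p under 0.05 was found for 912 probe sets when the 21218 with 1 gene symbol were taken alone, beside 804 of these in the fit of all (the cause was not tested), and for 1276 to 1642 without single mice. The difference between 12 h and 30 min was called for 23 to 41 probe sets, and that between 12 h and 4 h for 0. Without replicate 2 of FC12 and of CC12 the log2 fold change turned to 0.013 for Arc, 0.041 for Egr2 and 0.069 for Npas4, and the cause was not tested. With probe sets scaled to unit variance the score difference was -15.42 on PC1 and -1.99 on PC3 (exact permutation test, p = 0.599 and 0.9). The sign of a component is arbitrary and the scaled scores have another unit, so these values cannot be set against the unscaled ones. Without single mice the list medians ranged from -0.039 to -0.022 (clock), 0.062 to 0.114 (myelin), 0.038 to 0.065 (granule cell) and -0.42 to -0.17 (choroid plexus).

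After PC1 was subtracted, the deviations of same-numbered mice had a median correlation of 0.04 (-0.081 to 0.23), over 0.1 in 1 of 9 pairs. This leaves out PC1 itself, on which replicate 2 stood apart in both groups (61.06 in FC12 and 48.77 in CC12). On PC2, replicate 6 was the highest mouse of both groups (12.17 in FC12 and 22.13 in CC12) and replicate 9 the lowest (-5.58 and -6.3). Whether a replicate number marks a shared experiment was thus not settled. With the replicate number as a block, 0 probe sets were called for FC12 against CC12 and 1729 had an unadjusted p under 0.05, 25 differed between 12 h and 30 min, 23 of them also called without the block, and 0 between 12 h and 4 h. Of the probe sets with 1 gene symbol, 610 had a 95% interval that reached beyond 1.2-fold.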
